A study of Mus musculus with 36 samples.

Results

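Open chromatin that separated the foot from the hand in digits III and V of the mouse autopod (the end of the limb, with its digits) is described here. A region belonged to the hindlimb set where peaks of all 4 hindlimb lists of digits III and V covered it and peaks of none of the 4 forelimb lists did, and to the forelimb set in the reverse case. Of 50990 regions, 152 formed the hindlimb set (0.298% of all regions) and 92 the forelimb set (0.18%), 244 together. The 4 lists of digit I (thumb and hallux) had no part in that choice and served as the separate readout.

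ATAC-seq, which uses a transposase to cut and tag open chromatin for sequencing, had been applied to cells labelled as chondrocytes from E15.5 (embryonic day) FVB/NJ mouse embryos. The labels give the strain as the genotype and name no allele and no treatment. The 24 libraries used for the sets came from 8 groups of 3: foot phalanges and metatarsals of digits III and V for the hindlimb, and hand phalanges and metacarpals of digits III and V for the forelimb. The 12 digit I libraries formed another 4 groups: foot phalanges, metatarsal, hand phalanges and metacarpal. Each library pooled right and left elements of 3 to 5 littermates, that is of 6 to 10 limbs, and each deposited peak list pooled the 3 libraries of its group. Each list thus carries no error estimate, and every p-value below measures the spread between lists. The labels do not say whether the groups of 1 replicate shared embryos. The phalanges of digit I comprise a proximal and a distal bone, whereas those of digits III and V also comprise an intermediate one, so digit I lists differ from the others in the bones they hold.

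Fore- and hindlimbs form from nearly the same cartilage plan and are told apart by a small set of transcription factors. Pitx1, a paired-type homeobox factor, and Tbx4, a T-box factor, act in the hindlimb bud, and the related T-box factor Tbx5 acts in the forelimb bud. The posterior genes of the HoxC cluster, a row of homeobox genes, are expressed at the body level of the hindlimb. In the digits, chondrocytes of the growth plates lengthen each bone, and joints form between the bones under signals that include the growth factors Gdf5 and Gdf6. Open chromatin away from gene starts often marks enhancers, whose accessibility tends to differ between tissues more than that of promoters.

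Of the 244 regions, 18 overlapped the 250 bases before an annotated gene start: 12 of the hindlimb set (7.9%) and 6 of the forelimb set (6.5%). The share was 6.2% among the 1479 regions called in 2 of 4 lists of each limb, 47.8% among the 23386 regions called in all 8 lists and 25.0% among all regions. Promoter sequences were taken from RefSeq (GRCm38.p6, the same coordinates as mm10). The 4 printed here are examples from these 18 regions, which in digits III and V lay under peaks of 1 limb alone at this list length. They are Gpr6 and Lin28b of the hindlimb set and Nostrin and Cmtm5 of the forelimb set. Each runs 5' to 3' on the strand of its gene, the last base lies next to the annotated start, and capitals mark motif matches on either strand.
Gpr6, chr10:41072291-41072540, minus strand: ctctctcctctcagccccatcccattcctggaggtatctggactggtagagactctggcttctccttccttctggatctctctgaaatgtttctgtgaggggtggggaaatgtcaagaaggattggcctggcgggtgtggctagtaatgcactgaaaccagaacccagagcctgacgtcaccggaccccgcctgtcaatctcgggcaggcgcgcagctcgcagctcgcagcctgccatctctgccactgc
Lin28b, chr10:45470202-45470451, minus strand: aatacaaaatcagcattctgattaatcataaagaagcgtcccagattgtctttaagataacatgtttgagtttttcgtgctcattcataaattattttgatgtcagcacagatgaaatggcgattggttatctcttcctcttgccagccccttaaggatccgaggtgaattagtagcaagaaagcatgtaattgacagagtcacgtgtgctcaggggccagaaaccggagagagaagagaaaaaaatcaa
Nostrin, chr2:69135550-69135799, plus strand: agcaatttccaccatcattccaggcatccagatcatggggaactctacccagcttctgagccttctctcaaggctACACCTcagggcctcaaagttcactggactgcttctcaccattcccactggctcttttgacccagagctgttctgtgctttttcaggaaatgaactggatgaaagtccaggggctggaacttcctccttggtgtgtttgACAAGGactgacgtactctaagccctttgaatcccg
Cmtm5, chr14:54936220-54936469, plus strand: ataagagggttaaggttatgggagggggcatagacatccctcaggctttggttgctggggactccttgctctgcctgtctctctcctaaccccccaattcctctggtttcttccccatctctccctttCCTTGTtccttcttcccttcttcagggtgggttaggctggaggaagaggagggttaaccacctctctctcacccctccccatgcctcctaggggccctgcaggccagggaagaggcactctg

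The motifs searched were the T-box letters AGGTGT, the bicoid-type homeobox letters TAATCC that PITX factors bind, AP-1 TGANTCA, SOX ACAANG and the GC box GGGCGG, on both strands. Among all 32851 promoter windows of the same length, 11.8% held the T-box letters, 6.3% the bicoid-type letters, 6.7% AP-1, 36.3% SOX and 32.7% the GC box. The window of Nostrin, which encodes a protein that traffics endothelial nitric oxide synthase, held a T-box match on the minus strand and a SOX match on the plus strand. That of Cmtm5 held 1 SOX match, on the minus strand. The windows of Gpr6, an orphan G protein-coupled receptor, and Lin28b, an RNA-binding protein that blocks maturation of let-7 microRNAs, held no match to any of the 5 motifs. The examples do not stand for their sets. Windows of the hindlimb set not printed here held a bicoid-type match (Rbms2) and a GC box (Kirrel2), and that of Cstdc2 in the forelimb set held no match. GC content was 58.4% for Gpr6 and 39.2% for Lin28b, against a median of 52.4% over all windows. The Lin28b window belongs to a start site inside the gene. Peaks at the outer end of Lin28b (chromosome 10, 45485325 to 45487546) were called in all 12 lists, whereas the internal region (45467853 to 45471266) was called in the 4 hindlimb lists, in no forelimb list and in metatarsal digit I. The Gpr6 region (41070358 to 41072707) was called in both hindlimb digit I lists and in neither forelimb one. The Nostrin region (69134993 to 69137244) was in no digit I list, and the Cmtm5 region (54934534 to 54938312) only in that of metatarsal digit I.

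All 12 lists were cut to their 36194 most significant peaks, the length of the shortest. As deposited, hindlimb lists of digits III and V held 36700 to 47375 peaks and forelimb lists 36789 to 53276. The difference was smaller than the spread between lists (42076 ± 4710 against 43151 ± 7490, SD, n = 4; exact permutation p = 0.886, two-sided as throughout). Median peak widths were 1957 to 2271 bp in hindlimb and 1778 to 2042 bp in forelimb lists (exact permutation p = 0.114). After merging, 34849 ± 198 regions were called per hindlimb list and 34538 ± 238 per forelimb list (exact permutation p = 0.0571). The read depth behind each list is unknown. The mean Jaccard index (regions shared by 2 lists over regions in either) was 0.74 over 12 pairs of the same limb and 0.723 over 16 pairs from different limbs. Pairs matched for element and digit showed wider gaps: 0.787 against 0.742 (same element, other digit), 0.722 against 0.697 (other element, same digit) and 0.71 against 0.688 (both different), 4 pairs each. The 4 pairs that differed only in limb had 0.763. Chondrocyte markers had called regions in every list. Sox9, the master factor of cartilage, had 5 to 15 called regions in each of the 8 lists, and Col2a1, which encodes cartilage collagen, had 1 to 2.

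**Figure D1:**
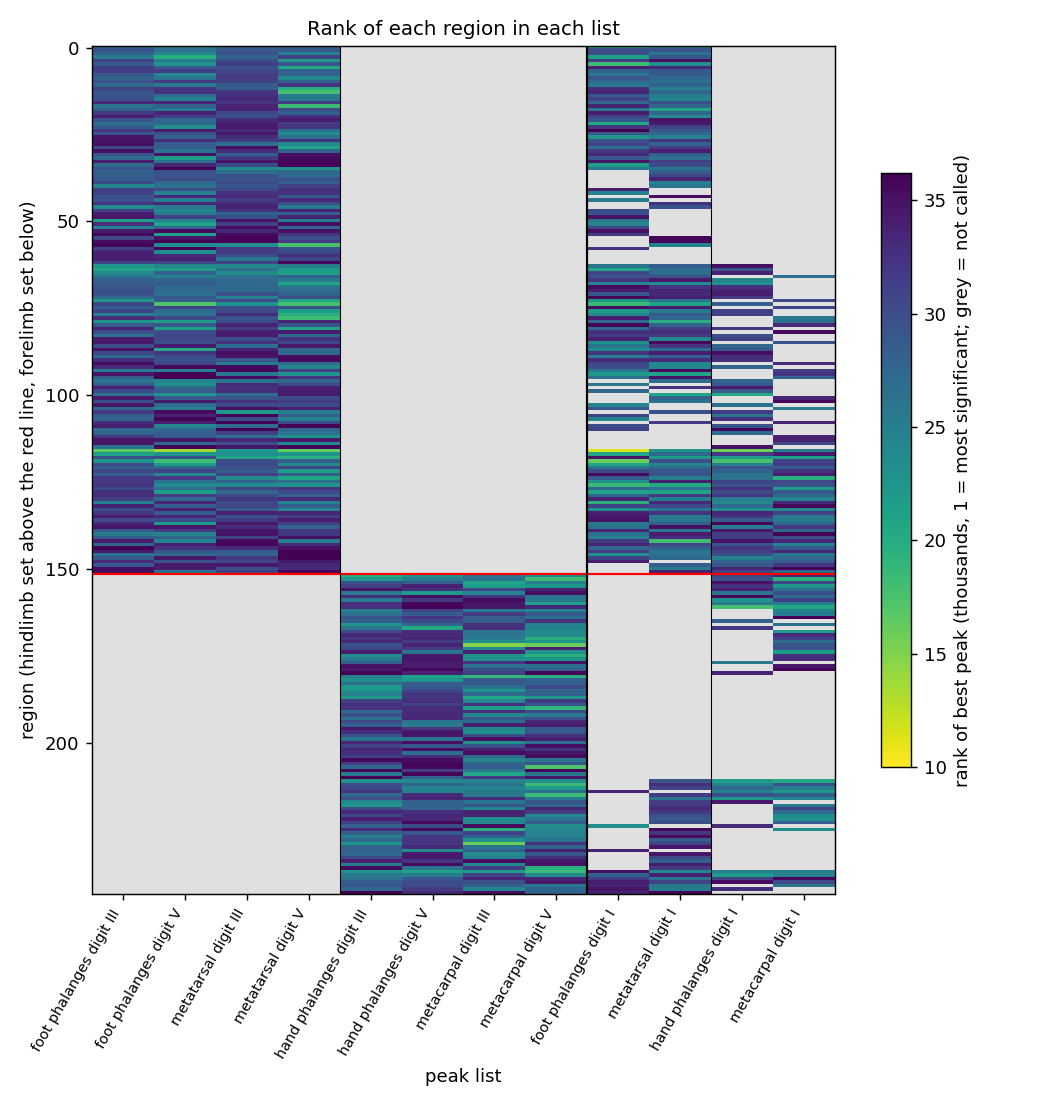
Rank of each of the 244 regions (rows) in each of the 12 lists (columns), with the hindlimb set above the red line and the forelimb set below it. Colour gives the rank of the region's best peak (1 = most significant, scale in units of 1000) and grey means not called; the 8 columns on the left defined the sets, and in the 4 digit I columns on the right the hindlimb set was called in 80.3, 80.3, 46.1 and 36.2% of its regions and the forelimb set in 10.9, 32.6, 29.3 and 46.7%.

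The members stood low in the lists that called them. Peaks of a list were ranked from 1, the most significant, to 36194. Median ranks of the hindlimb set were 29984 in foot phalanges III, 28451 in foot phalanges V, 30744 in metatarsal III and 29064 in metatarsal V. Those of the forelimb set were 29588 in hand phalanges III, 32012 in hand phalanges V, 26639 in metacarpal III and 27552 in metacarpal V. Between 0 and 4 members per list (0.0 to 2.6%) lay in its upper 50%. Regions called in exactly 4 of the 8 lists had similar medians, from 28092 to 30633, whereas those of regions called in all 8 lists were 11834 to 12047. Just outside the rule, 335 regions were called in 4 hindlimb and 1 forelimb list and 447 in 3 hindlimb and no forelimb list. On the forelimb side, 242 were called in 4 forelimb and 1 hindlimb list and 336 in 3 forelimb and no hindlimb list. Metatarsal III was the missing list for 236 of the 447 and the extra list for 127 of the 242. Hand phalanges V was the missing list for 177 of the 336 and the extra list for 152 of the 335. Without metatarsal III the sets grew to 387 and 220 regions, and without hand phalanges V to 304 and 268.

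Further down the full lists, many members had a peak in the other limb. The cut fell at unlike significance. The least significant peak kept had a −log10 p of 33.1 to 54.5 in hindlimb and 25.3 to 66.8 in forelimb lists. Metacarpal III was cut at 66.8, and its deposited peaks went down to 34.8. Foot phalanges V and metatarsal V were cut at 33.1, so a peak below the cut of metacarpal III need not be weak. Of the 152 hindlimb regions, 112 (73.7%) were found among the 17082 remaining lines of metacarpal III and 71 (46.7%) among the 8095 remaining lines of hand phalanges III. The shorter lists of digit V added 7 (595 lines, hand phalanges) and 13 (2056 lines, metacarpal). Of the 92 forelimb regions, 57 (62.0%) appeared in the 8098 remaining lines of metatarsal III and 52 (56.5%) in the 11181 of foot phalanges III. In none of the full lists of the other limb were 28 hindlimb regions (18.4%) and 20 forelimb regions (21.7%). For most members the other limb thus had a peak of lower rank in at least 1 list.

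The digit I lists answered whether the same regions separate foot from hand in the first digit. Of the 152 hindlimb regions, 122 (80.3%, Wilson 95% interval 73.2 to 85.8%) were called in foot phalanges I and likewise 122 in metatarsal I. The forelimb lists called fewer, 70 in hand phalanges I (46.1%, 38.3 to 54.0%) and 55 in metacarpal I (36.2%, 29.0 to 44.1%). The hindlimb lists did not overlap the forelimb lists, and the mean difference was 39.1 percentage points. Within the phalanges the shares were 80.3% against 46.1%, and within the metapodials 80.3% against 36.2%. Regions called in 2 of 4 lists of each limb served as a measure of general differences between these 4 lists: their shares were 43.3% (foot phalanges), 51.7% (metatarsal), 46.8% (hand phalanges) and 46.5% (metacarpal), a difference of 0.9 points. An exact permutation test of 2 lists against 2 cannot give a p below 0.333, so the digit I difference has no call.

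In its own limb's digit I lists the forelimb set stood at or below the general level. Of its 92 regions, 27 were called in hand phalanges I (29.3%, Wilson 95% interval 21.0 to 39.3%) and 43 in metacarpal I (46.7%, 36.9 to 56.9%), against 46.8% and 46.5% of the regions called in 2 of 4 lists of each limb. The hindlimb lists called 10 in foot phalanges I (10.9%, 6.0 to 18.9%) and 30 in metatarsal I (32.6%, 23.9 to 42.7%). The lists of the limbs overlapped, since metatarsal I called more members than hand phalanges I, and the mean difference was -16.3 points. Within the phalanges it was 10.9% against 29.3% and within the metapodials 32.6% against 46.7%. With the full digit I lists the difference shrank to -1.6 points. The difference between the sets in their digit I calls was not tested.

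**Figure D2:**
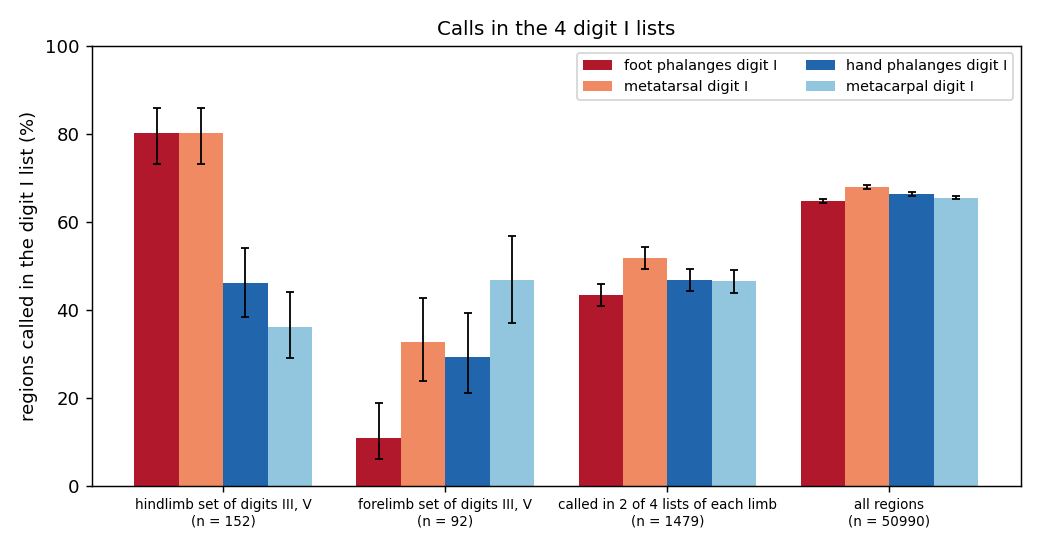
Share of regions (%) called in each of the 4 digit I lists, for the hindlimb set, the forelimb set, regions called in 2 of 4 lists of each limb, and all regions. Bars start at 0 and whiskers are Wilson 95% intervals, which cover counting over regions only; the hindlimb set stands at 80.3% in both hindlimb lists, and the forelimb set is at most 46.7% in any list.

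Single regions were spread over several patterns of digit I calls. Both hindlimb digit I lists called 101 of the 152 hindlimb regions (66.4%), 1 of them called 42 and neither called 9. In 36 regions (23.7%) both hindlimb lists and neither forelimb list of digit I called the region, which is full agreement with digits III and V. Nearly as many, 33 (21.7%), were called in both hindlimb lists and 1 forelimb list of digit I. At least 1 forelimb digit I list called 89 (58.6%), and all 4 digit I lists called 32 (21.1%). In the forelimb set, both forelimb lists called 20 of 92 regions (21.7%), 1 called 30 and neither called 42 (45.7%). Full agreement was seen for 10 (10.9%), and 30 (32.6%) were in no digit I list. Of the regions called in 2 of 4 lists of each limb, 3.4% had the pattern of both hindlimb and no forelimb digit I list, and 3.7% the reverse. The strictest subset agreed in digit I and was absent from the full lists of the other limb in all digits. It held 11 hindlimb regions, assigned to Cacna1e, Frmd4a, Spata16, Mup-ps12, Clnk, Rybp, Adamts17, Gm11677, Dicer1, Snx29 and Slc4a9, and 2 forelimb regions, assigned to Mapkapk3 and Pou4f3.

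Both sets lay mostly away from gene ends. Each region was assigned to the protein-coding gene whose nearer end lay closest to its centre, up to 1 Mb. Of the hindlimb set, 5 (3.3%, Wilson 95% interval 1.4 to 7.5%) were centred within 1 kb of a gene end, and of the forelimb set 6 (6.5%, 3.0 to 13.5%). The share was 4.6% for regions called in 2 of 4 lists of each limb, 39.8% for those in all 8 lists and 20.7% for all regions. Median distances to a gene end were 39.0 kb (hindlimb set), 45.8 kb (forelimb set), 31.5 kb (2 of 4 lists of each limb) and 2.3 kb (all 8 lists). Beyond 100 kb lay 29.6% and 30.4% of the sets against 21.9% of regions called in 2 of 4 lists of each limb. Inside genes lay 70 hindlimb regions (46.1%) and 48 forelimb regions (52.2%). Median widths were 2249.5 and 2035.5 bp, near the 2028 bp of regions in 2 of 4 lists of each limb. The hindlimb set had its largest number on chromosome 10, with 17 of 152 (11.2% against 5.6% of all regions). The forelimb set had its largest on chromosome 2, with 11 of 92 (12% against 7.7%). On X and Y together there were 1 hindlimb and 2 forelimb regions.

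**Figure D3:**
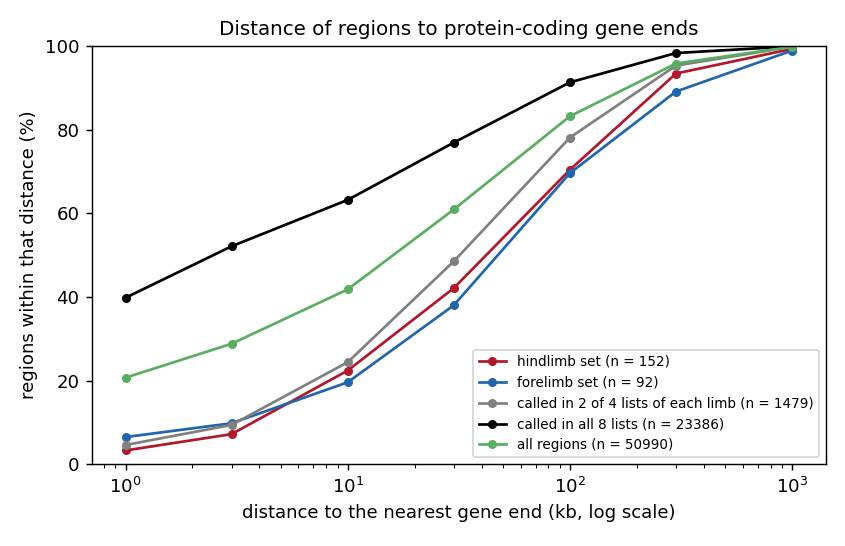
Cumulative share of regions (%) by distance from their centre to the nearest protein-coding gene end (kb, log scale), for the 2 sets and 3 comparison groups. At 1 kb the hindlimb set (3.3%) and forelimb set (6.5%) lie near the regions called in 2 of 4 lists of each limb (4.6%) and below the regions called in all 8 lists (39.8%).

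Among the 36 hindlimb regions that agreed in digit I, those whose lowest rank over the 4 hindlimb lists was best are named here. The first lay 202.5 kb from Rybp, which encodes a subunit of Polycomb repressive complexes (chromosome 6, 100024990 to 100027127). Its ranks were 26810 in foot phalanges III, 24295 in foot phalanges V, 28484 in metatarsal III and 28397 in metatarsal V, and in digit I 21256 (foot phalanges) and 24556 (metatarsal). No full forelimb list of digits III and V held it. The next lay inside Frmd4a, a scaffold of cell junctions (chromosome 2, 4326142 to 4328758), with ranks of 29380, 26452, 28910 and 28699 in the same order. Fgf12, an FGF relative that stays inside the cell and acts on sodium channels, held a region (chromosome 16, 28287712 to 28291044) with ranks of 27454, 25615, 28621 and 32160. With peaks required to cover 50% of a region, the Fgf12 region was called in 2 hindlimb lists and the Frmd4a region in 3. Both of these, and a region 47.6 kb from Spata16 (chromosome 3, 27029402 to 27032227), were likewise in no full forelimb list of digits III and V.

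The following hindlimb regions had a forelimb peak in at least 1 full list of digits III and V. Sfrp2 encodes a secreted WNT antagonist, and its region lay 194.9 kb away (chromosome 3, 83570068 to 83571702) with ranks of 28537, 22847, 31366 and 29137. In digit I it stood higher, at 18167 in foot phalanges and 23248 in metatarsal, and a peak below the cut came at line 40958 of hand phalanges III. Dact1, a regulator of Dishevelled in WNT signalling, had a region at 139.0 kb (chromosome 12, 71458120 to 71459997) with ranks of 29315, 32485, 32158 and 17740. Efnb2, the membrane-bound ligand ephrin B2, had one at 308.8 kb (chromosome 8, 8307245 to 8309648) with ranks of 31576, 31504, 30569 and 28101. Car12, a carbonic anhydrase at the cell surface, held a region (chromosome 9, 66722035 to 66723785) with ranks of 25192, 19675, 27807 and 31024, and 2 full forelimb lists held a peak there. The remaining regions of the 15 were a region inside 2700049A03Rik, 1 with no gene within 1 Mb (chromosome 18, 28695740 to 28697687), and those assigned to Sptssa, Ankrd1, Mki67, Capza3 and Slc4a9, the last in no full forelimb list of digits III and V. Over all 15, ranks in the 4 hindlimb lists ran from 17740 to 32545.

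Of 253 genes listed for limb identity, patterning, cartilage, bone length and cell types, 10 had a hindlimb region assigned to them, among them Pitx1, Shh and Adamts17, and 3 had a forelimb region. Those with any called region numbered 234. Over all 15764 genes with a called region, 148 had a hindlimb and 85 a forelimb region. Listed genes held 1056.5 of the 34801.25 assigned regions of a mean hindlimb list, and 11 of the 151 assigned hindlimb members. Pitx1 had a region at 87.7 kb (chromosome 13, 55922765 to 55924984), ranked 31403 in foot phalanges III, 29999 in foot phalanges V, 30381 in metatarsal III and 32595 in metatarsal V. Of digit I, foot phalanges called it (rank 33901) and metatarsal did not, nor did either forelimb list. Line 40991 of metacarpal III was the only peak over it in the full forelimb lists of digits III and V. Where peaks had to cover 50% of the region, the excess of hindlimb over forelimb lists fell from 4 to 2. The digit patterning gene Shh, the ligand of the posterior limb organiser, had one at 318.7 kb (chromosome 5, 28785229 to 28786383). In digit I, metatarsal and metacarpal called it. Irx3, an Iroquois homeobox gene, had one at 194.4 kb (chromosome 8, 91994360 to 91997812) that all 4 digit I lists called. All 4 also called those of the joint gene Creb5 (chromosome 6, 53389629 to 53391316), of Sox6, a partner of Sox9 in cartilage (chromosome 7, 115666369 to 115669564), and of Sp7, the osteoblast factor osterix (chromosome 15, 102381334 to 102382565). Both hindlimb lists and metacarpal I called that of Six2 (98.1 kb, chromosome 17, 85785180 to 85787437). Of the 11 regions next to the 10 genes, 2 thus agreed fully in digit I, those of Sfrp2 and 1 of Adamts17.

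Adamts17, a secreted metalloprotease of the matrix in which mutations cause short stature and short digits, had 2 hindlimb regions. One lay inside the gene (chromosome 7, 66866788 to 66869177), with ranks of 28804 in foot phalanges III, 29105 in foot phalanges V, 33658 in metatarsal III and 29610 in metatarsal V. It was also called in 3 digit I lists: foot phalanges, metatarsal and metacarpal. The other lay 15.3 kb beyond the gene (67167384 to 67169647), with ranks of 31840, 33717, 30545 and 28071, in both hindlimb digit I lists and in no full forelimb list. Of the 12 regions assigned to the gene, 5 were called in at least 1 hindlimb and in no forelimb list of digits III and V, and 4 were called in all 8 lists. The one at its lower-coordinate end (66838538 to 66843716) was also in all 4 digit I lists.

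**Figure D4:**
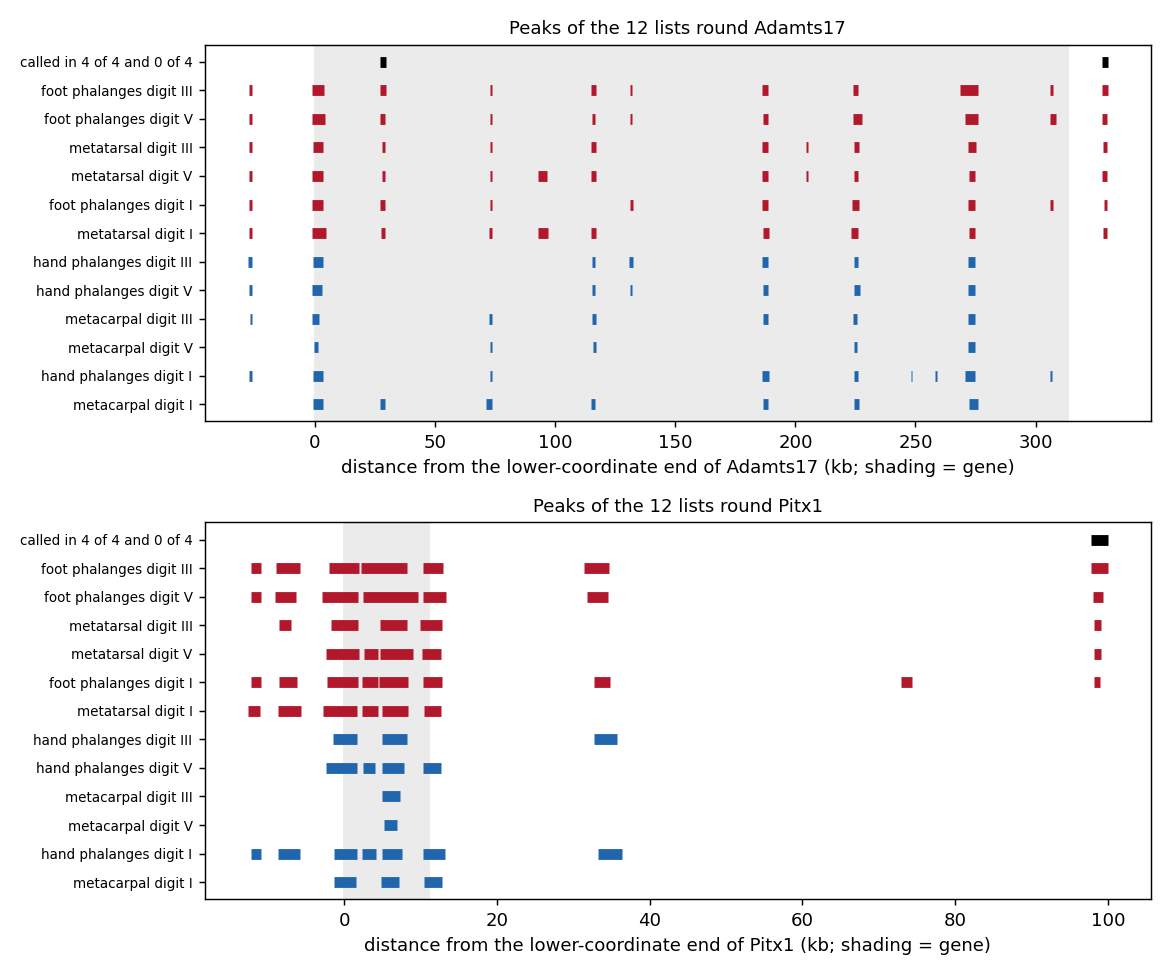
Peaks of the 12 lists at Adamts17 (upper) and Pitx1 (lower) by distance from the lower-coordinate end of the gene (kb); grey shading is the gene, red bars are hindlimb and blue bars forelimb peaks, and black bars on top are the regions of the hindlimb set. At Adamts17 the regions centred 28.3 kb inside and 15.3 kb beyond the gene are empty in the 4 forelimb lists of digits III and V, and at Pitx1 the region 87.7 kb away is.

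In the forelimb set, 10 regions agreed in digit I. Foxa2, the only gene of the lists among them and a forkhead factor of hypertrophic chondrocytes, had a region at 114.8 kb (chromosome 2, 147927249 to 147928965). Its ranks were 31256 in hand phalanges III, 33805 in hand phalanges V, 21635 in metacarpal III and 22299 in metacarpal V, and 32364 and 22417 in the digit I lists. Irx1, an Iroquois homeobox gene, had one at 450.3 kb (chromosome 13, 71506767 to 71509056) with ranks of 25044, 31934, 35473 and 25798. A region inside Wwtr1, which encodes the Hippo pathway coactivator TAZ (chromosome 3, 57540867 to 57544635), had ranks of 29697, 28379, 20796 and 25187. Peaks below the cut lay over these 3 in 2, 3 and 2 full hindlimb lists of digits III and V. The region 0.4 kb from Mapkapk3, a kinase activated by p38 (chromosome 9, 107253655 to 107255487), was in no full hindlimb list. It stood low in digits III and V, at 32536, 35968, 34595 and 33278, and much higher in digit I, at 17858 and 20382. The Pou4f3 region (54.3 kb, chromosome 18, 42449324 to 42451383) was absent from the full hindlimb lists too. The others were assigned to Shf, Fhit, Ndufb4b, Abhd2 and Camk2a. Further listed genes with a forelimb region were Gpc6, a glypican of the cell surface that is mutated in a short-limb dysplasia, and Cdh5, the cadherin of endothelium. That inside Gpc6 (chromosome 14, 117478244 to 117479469) was called in metacarpal I alone of the digit I lists and in no full hindlimb list of digits III and V. That nearest to Cdh5 lay 608.9 kb away (chromosome 8, 103491720 to 103493797), and 3 digit I lists called it.

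Several genes had 2 regions of 1 direction. In the hindlimb set these were Adamts17, Dact1 and Smad3, the receptor-activated SMAD of TGF-beta signalling. Both Smad3 regions lay inside the gene, 83.6 kb apart. The one 11.5 kb from its end (chromosome 9, 63744686 to 63748259) was in both hindlimb and neither forelimb digit I list, and the other (63657812 to 63661114) in all 4. In the forelimb set the genes were Acvr2a, an activin receptor, Ptprd, Cep128, Itpk1, Klhl2 and Adgrf1. Neither region of Acvr2a, Ptprd, Cep128 or Adgrf1 was in any digit I list. Ptpn1 and Palld had 1 region of each direction. Those of Ptpn1, a protein tyrosine phosphatase, were only 5.0 kb apart on chromosome 2, the forelimb one at 167815008 to 167817986 and the hindlimb one at 167822964 to 167825878. All 4 digit I lists called the hindlimb one, and 3 called the forelimb one (metatarsal, hand phalanges and metacarpal). Within 200 kb of each other lay 6 pairs of hindlimb regions, 5 pairs of forelimb regions and these 2 mixed pairs. One pair of hindlimb regions, 109.1 kb apart, was assigned to Dcn and Kera, genes of small leucine-rich proteoglycans. They lay 0.2 kb from Dcn (chromosome 10, 97477953 to 97480560) and 15.9 kb from Kera (97589699 to 97592446). Both Dcn and Kera regions were called in metatarsal I, the Kera one also in foot phalanges I, and neither in a forelimb digit I list.

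Counting all called regions of a gene instead of separate regions, 15764 genes were compared between 4 hindlimb and 4 forelimb lists. In 83 genes (0.527%) each hindlimb list had more regions than any forelimb list, and in 49 (0.311%) each forelimb list had more. With the full lists the balance turned, to 28 genes higher in hindlimb and 50 higher in forelimb lists. These have the smallest two-sided exact permutation p that 70 labellings allow, 0.0286. None passed Benjamini-Hochberg adjustment (smallest adjusted exact permutation p = 1). Of the 253 genes of the 15 lists, 234 had a region. Of these, 5 had more regions in hindlimb lists and 0 in forelimb lists. The 5 were Adamts17, Pitx1, Lin28b, Gdf6 and Dact2. The first 3 hold members of the hindlimb set, whose choice by the same lists adds to their difference, so their counts are given with no p. Gdf6 and Dact2 hold none. With all 244 members left out of the counts, 39 genes were higher in hindlimb and 25 in forelimb lists.

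Adamts17 had 10 regions in foot phalanges III, 10 in foot phalanges V, 9 in metatarsal III and 10 in metatarsal V, against 6 in hand phalanges III, 6 in hand phalanges V, 6 in metacarpal III and 5 in metacarpal V. The means were 9.75 ± 0.5 and 5.75 ± 0.5 (SD, n = 4 lists). Without its 2 members Adamts17 had 8, 8, 7 and 8 regions against 6, 6, 6 and 5, with no overlap (difference 2.0, exact permutation p = 0.0286 before adjustment). Adamts17 too was named because its counts in these lists did not overlap, so this p is not separate support. In digit I it had 9 in each hindlimb list against 6 (hand phalanges) and 7 (metacarpal), again with no overlap. Pitx1 had 4, 4, 3 and 3 regions in the hindlimb lists and 2, 2, 1 and 1 in the forelimb lists, in the same order (3.5 ± 0.58 against 1.5 ± 0.58, SD, n = 4). These counts leave out a region over the lower-coordinate end of Pitx1, which was not assigned to it. In digits III and V, all 4 hindlimb lists and hand phalanges III and V had a peak there. Without its member the Pitx1 counts were 3, 3, 2 and 2 against 2, 2, 1 and 1, and the limbs overlapped (exact permutation p = 0.171). Its digit I counts overlapped, with 4 and 2 in hindlimb and 3 and 2 in forelimb lists. A region 0.5 kb from the upper end of Pitx1 (55834960 to 55838417) was in all 4 hindlimb lists and in hand phalanges V, and in all 4 digit I lists. Gdf6, the joint growth factor, had 8, 8, 7 and 9 regions against 6 in each forelimb list (8.0 ± 0.82 against 6.0 ± 0.0, exact permutation p = 0.0286, adjusted p = 1, n = 4). The Gdf6 excess came from different regions, called in 3, 2, 1, 1 and 1 hindlimb lists and in no forelimb list of digits III and V. The one in 3 lists lay at 119.7 kb (chromosome 4, 9980922 to 9983190) and was picked after its calls were seen. Both hindlimb digit I lists and no forelimb list called it. Dact2, an inhibitor of WNT and TGF-beta family signalling, had 3, 3, 3 and 4 against 2 in each (exact permutation p of 0.0286, adjusted p of 1). Its excess came from different regions, called in 2, 2 and 1 hindlimb lists and in no forelimb list of digits III and V. Gdf6 and Dact2 were named because their counts did not overlap, and that alone gives this p. Lin28b had 2 in every hindlimb and 1 in every forelimb list, a difference made up entirely of its member: without it, every list had 1. With the full lists only Adamts17 of the 5 kept this separation (difference 3.5 regions). The differences for the others were 2.0 for Pitx1, 2.25 for Gdf6 (exact permutation p = 0.0857), 1.25 for Lin28b and 1.0 for Dact2 (exact permutation p = 0.114).

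**Figure D5:**
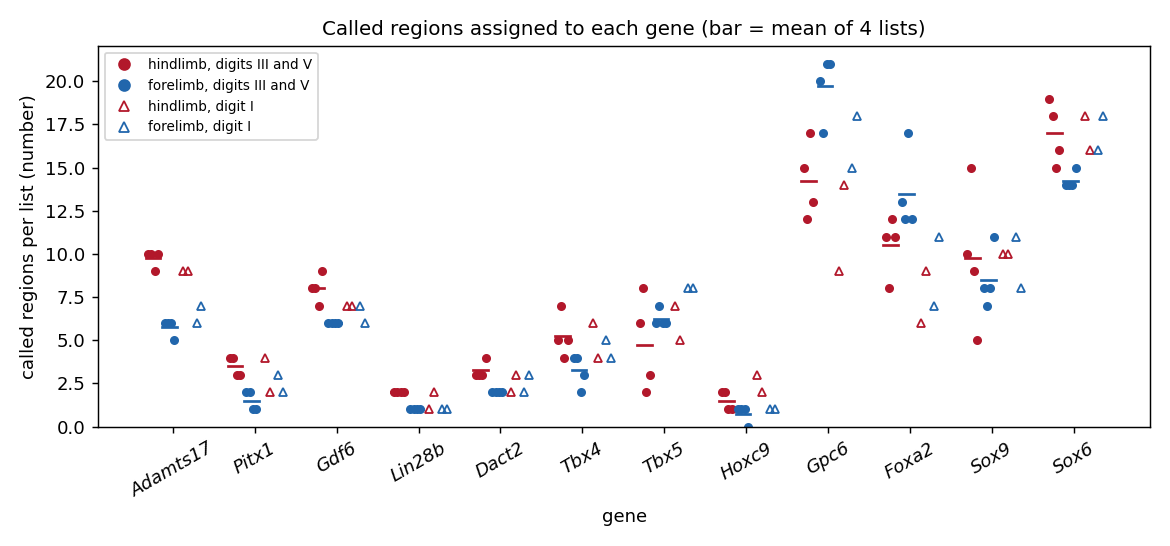
Number of called regions per list for 12 genes, with filled circles for the 8 lists of digits III and V, open triangles for digit I, red for hindlimb and blue for forelimb, and a bar at the mean of 4 lists. Adamts17, Pitx1, Gdf6, Lin28b and Dact2 have hindlimb circles all above the forelimb circles, while the other 7 genes overlap.

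At the level of genes too, digit I carried part of the separation. Of the 83 genes higher in hindlimb lists, 15 (18.1%) also had more regions in both hindlimb than in either forelimb digit I list, and 0 had the reverse. Of the 49 genes higher in forelimb lists, 9 (18.4%) had the same order in digit I and 3 (6.1%) the reverse. Over all genes the shares were 3.5% (553 genes) for hindlimb and 2.7% (427) for forelimb. Of the 5 listed genes, 1 (Adamts17) had it.

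The other landmark genes of limb identity overlapped between the limbs when all their regions were counted. Tbx4 had 5, 7, 4 and 5 regions in hindlimb and 4, 4, 2 and 3 in forelimb lists (5.25 ± 1.26 against 3.25 ± 0.96, SD, n = 4, exact permutation p = 0.0857). With the full lists the Tbx4 limbs did not overlap (difference 2.0, exact permutation p = 0.0286), nor without metatarsal III (2.42, exact permutation p = 0.0286). Tbx4 did not pass with 10 kb flanks (1.5, exact permutation p = 0.0857) or without foot phalanges V (1.42, exact permutation p = 0.171). A Tbx4 region 9.7 kb from the gene (chromosome 11, 85875660 to 85877600) missed the hindlimb set by 1 list: all but metatarsal III called it, no forelimb list did, and of digit I only foot phalanges did. Tbx5 had 6, 8, 2 and 3 regions against 6, 7, 6 and 6 (4.75 ± 2.75 against 6.25 ± 0.5, exact permutation p = 0.4, n = 4). Inside Tbx5, a region at 119799477 to 119801510 on chromosome 5 missed the forelimb set by 1 list: all but hand phalanges III called it, no hindlimb list did, and in digit I both forelimb and neither hindlimb list did. Next to it, 119802247 to 119805453 was in all 4 forelimb lists and in foot phalanges V, again with both forelimb and neither hindlimb list of digit I. Both Tbx5 regions and the Tbx4 region were picked after their calls were seen. Hoxc9 had 2, 2, 1 and 1 regions against 1, 1, 1 and 0 (exact permutation p = 0.286), Hoxc11 had 2, 2, 0 and 1 against 0, 1, 0 and 1 (exact permutation p = 0.4), and Hoxc10 had 1 in every list. Sox9, Col2a1 and Gdf5 did not pass either, with differences of 1.25, -0.25 and 0.25 regions. The largest difference towards the forelimb among the genes named here was in Gpc6, with 15, 12, 17 and 13 regions against 20, 17, 21 and 21 (14.25 ± 2.22 against 19.75 ± 1.89, SD, n = 4). Without its member the Gpc6 difference was -4.5 (exact permutation p = 0.0571).

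Gene lists are given by their counts, as no test was made over a list. Among limb identity genes, 1 of the 14 that had any region stood higher in hindlimb lists (Pitx1). So did 2 of 20 bone length and brachydactyly genes (Adamts17 and Lin28b) and 2 of 17 joint genes (Gdf6 and Dact2). The counts of Pitx1, Adamts17 and Lin28b include members of the hindlimb set, which the same lists had chosen. For comparison, 0.53% of all 15764 genes separated towards the hindlimb and 0.31% towards the forelimb. None of 35 digit patterning genes, 32 growth plate signalling genes, 6 posterior HoxA and HoxD genes or 16 genes of perichondrium and osteoblasts was higher in either limb. The same held for the 20 genes of resting and proliferating chondrocytes and the 14 of prehypertrophic and hypertrophic chondrocytes. Median differences per gene ran from 0 to 0.5 regions over all 15 lists, beside 0 over all genes. Summed over its genes, the list of resting and proliferating chondrocytes took 95.5 ± 6.24 regions in hindlimb and 95.75 ± 5.56 in forelimb lists (SD, n = 4), and that of prehypertrophic and hypertrophic chondrocytes 63.0 ± 4.83 and 66.25 ± 3.77. Growth plate signalling genes took 130 to 153 regions per hindlimb list and 123 to 128 per forelimb list (139.75 ± 10.78 against 125.5 ± 2.08), and all listed genes 1016 to 1104 against 964 to 1010, neither with overlap. Over all genes the lists took 34517 to 34984 against 34254 to 34809. Both sums include members chosen by the same lists: 1 hindlimb member for growth plate signalling, and 11 hindlimb and 3 forelimb members for all listed genes. Markers of tissues outside the cartilage were counted the same way. Those of skeletal muscle took 16 to 21 regions per hindlimb list and 10 to 18 per forelimb list (18.25 ± 2.22 against 13.25 ± 3.4, 12 of 14 genes with a region). Blood and macrophage markers took 30 to 35 against 28 to 30 (8 of 12 genes with a region), and endothelial ones 38 to 44 against 33 to 41, so the means of these 3 lists were higher in the hindlimb while their ranges overlapped or touched. Epidermal markers took 20 to 23 against 18 to 24, and those of nerve and Schwann cells 13 to 16 against 12 to 17. No member of either set was assigned to a gene of the muscle, blood, epidermis or nerve lists. For the endothelial list there was 1 forelimb region, 608.9 kb from Cdh5. These short lists leave out other genes to which members were assigned. Among those were Nostrin (0.3 kb), Cd96 (0.5 kb) and Mbp (inside the gene) in the forelimb set and H2-Eb1 (0.5 kb) in the hindlimb set. The part of cell mixture in the 244 regions was not tested beyond these counts.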

How the data were processed

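Peak lists were used as the authors deposited them, 1 per group and pooled over its 3 libraries, which per the file headers (peak names and file naming) were filtered by IDR on mm10. Bowtie2 2.3.4.1, Picard 2.9.0 and MACS3 are named in the submitters' processing notes, which assign them no role. The deposited columns hold a score, a signal given as fold enrichment (a ratio over background), the −log10 of p and q (q was not used), and the summit offset. No count per library was used, so depth and the spread between libraries are unknown.

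In each of the 12 lists the lines are in falling order of the deposited −log10 p. The first 36194 lines were kept, peaks of the 8 lists of digits III and V were merged at 1 bp overlap, and a list called a region where 1 of its peaks covered at least 1 bp. Regions were assigned to the protein-coding gene (RefSeq GRCm38.p6, 21883 genes) with the nearest end, up to 1 Mb. Gene ends were used because the gene table gives no strand. Called regions per gene were compared by a two-sided exact permutation test over lists, with Benjamini-Hochberg adjustment over all 15764 genes. Shares carry Wilson 95% intervals, which cover counting error only. Digit I differences and all sets have no test, as 2 lists against 2 cannot pass 0.05. The procedure was tested on simulated peak lists with Python 3.11.15, numpy 2.4.6, pandas 2.3.3 and scipy 1.17.1.

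Named regions were those called in both digit I lists of their limb and in neither of the other, ordered by their worst rank in the 4 lists of the limb (up to 15 hindlimb and 10 forelimb). Members next to a listed gene and genes with at least 2 members of 1 direction followed. Named genes were limb and cartilage landmarks and listed genes with no overlap between the limbs. The members and gene lists were chosen with earlier results of these data known. Alternatives were the full lists, the more significant 50% of lines, 50% cover, 500-bp summit windows, autosomes, a 1 kb margin, merging all 12 lists, at least 3 of 4 lists, gene bodies with 10 kb flanks, matched label swaps and leaving out each list. Gene counts without the members were added after seeing the data.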

Additional observations from a re-analysis of the deposited data

Results flagged for a closer look

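Among the named genes, 12 counts of called regions stood apart from the other 3 lists of their limb by the gap of 1 list relative to the range of all 4. Chance marks about 1 in 20 groups of continuous values by this criterion. These are whole numbers with ties, where a single list that differs by 1 region meets it, and the rate for such counts was not computed. In hindlimb lists, metatarsal digit III was low for Adamts17 (9 regions), Gdf5 (1) and Six2 (7). Metatarsal digit V was high for Dact2 (4), and foot phalanges digit V was low for Col2a1 (1). In forelimb lists, metacarpal digit V was low for Adamts17 (5), Hoxc9 (0) and Shh (1) and high for Sox6 (15). Hand phalanges digit V was high for Six2 (7), Sp7 (4) and Tbx5 (7).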

How the results depend on the processing

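The sets depend on how far down the lists peaks are read. Against 152 hindlimb and 92 forelimb regions, the more significant 50% of lines gave 32 and 18, and calls in at least 3 of 4 lists with none in the other limb gave 599 and 428. Requiring peaks to cover 50% of a region raised the hindlimb set to 235 and left 71 forelimb regions. The full lists (132 and 81), summit windows (162 and 108), autosomes (151 and 90), a 1 kb margin (145 and 85) and merging all 12 lists (151 and 91) stayed within 1.5 times. Leaving out 1 list relaxes the rule and gave 200 to 387 hindlimb and 113 to 268 forelimb regions, highest without metatarsal III and without hand phalanges V respectively. The digit I difference of the hindlimb set (39.1 points) was 48.4 with the full digit I lists, 32.2 with 50% cover and 34.2 to 44.1 without 1 list. That of the forelimb set (-16.3) was -1.6 with the full lists and -27.2 to -5.4 without 1 list. Genes higher in hindlimb and in forelimb lists (83 and 49) numbered 28 and 50 with the full lists, 75 and 31 with gene bodies and 10 kb flanks, and 39 and 25 with the 244 members left out, which was added after seeing the data. Without 1 list they numbered 97 to 177 and 60 to 114. No paired analysis was possible because the 3 numbered libraries of a group are pooled in 1 list. Swapping limb labels within element and digit left 0 genes in either direction, since its smallest exact p is 0.125. The Adamts17 counts did not overlap between the limbs with the full lists, with 10 kb flanks, on autosomes and without any 1 list. These counts include members chosen by the same lists, so they are not separate support. With members left out the Adamts17 difference was 2.0 (exact permutation p = 0.0286 before adjustment), in the same lists whose separation had led to its naming. No other alternative was run for its count besides the swap. With members left out Pitx1 (1.0, exact permutation p = 0.171) and Lin28b (0.0, p = 1) did not pass. Gdf6 did not pass without any 1 of the 4 forelimb lists (2.0, exact permutation p = 0.0571), while Tbx4 passed without metatarsal III (2.42, exact permutation p = 0.0286). Without foot phalanges V (1.42, exact permutation p = 0.171) or with 10 kb flanks (1.5, exact permutation p = 0.0857) Tbx4 did not pass. The Sox6 count, which includes a member, differed by 3.42 without metatarsal III. With 10 kb flanks Gdf6 (0.5 regions, exact permutation p = 0.429) and Dact2 (0.0, p = 1) did not pass. The Pitx1 limbs overlapped there too, with a difference of 2.0 regions. The causes were not tested. Ordering by significance was not run as a separate alternative because the lines already had that order. The excess of lists of 1 limb over the other changed for 28 of 37 named regions with the full lists, for 37 with the more significant 50% of lines and for 6 with 50% cover. No gene passed adjustment and the digit I differences have no call, so there was no called result to change direction. Some differences without a call changed sign, such as that of Sox9, from 1.25 to -0.5 regions without foot phalanges V.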
